A study of Homo sapiens with 6 samples.

Results

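Mitochondria constantly fuse and divide, and a small set of proteins carries out these steps. The mRNAs of 10 genes of this fusion and fission machinery were examined in MM.1S cells after knockdown of PRMT1, the main type I arginine methyltransferase of mammalian cells. The genes were chosen by name from the deposited expression table. They were MFN1, MFN2, OPA1, OMA1, YME1L1, DNM1L, FIS1, MFF, MIEF1 and MIEF2. All 10 were found among the 58735 genes of the table, and all 10 belonged to the 13585 genes with a mean of at least 1 FPKM (a read count scaled by gene length and library size) across the 6 libraries, which were the genes tested. MM.1S cells are a myeloma line that has long been in laboratory use. The control group held 3 libraries from cells given a negative control siRNA (NC), and the PRMT1 knockdown (PRMT1 KD) group held 3 libraries from cells given siRNA against PRMT1. By the study's methods, siRNA was transfected transiently with a lipid reagent at 100 nM in both groups, and the cells for RNA sequencing were collected after 72 h. The comparison asks whether the mRNAs of these genes differed between the groups. Only mRNA was measured, at the level of whole genes. Cleaved forms of OPA1, phosphorylated forms of DNM1L and splice variants were not analysed here.

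As background, MFN1 and MFN2 are the GTPases that join the outer membranes of neighbouring mitochondria, and OPA1 is the GTPase that joins the inner membranes and shapes the cristae. YME1L1 and OMA1 are inner membrane proteases that cut OPA1, the first as part of normal turnover and the second mainly under stress. DNM1L encodes DRP1, the dynamin-like GTPase that constricts and divides mitochondria. DRP1 is a cytosolic protein, and it is brought to the outer membrane by MFF, FIS1, MIEF1 (also called MiD51) and MIEF2 (also called MiD49).

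The libraries held 14439217 to 16465026 reads on genes, worked back from the deposited values. PRMT1 itself was 61.7, 62.8 and 59.0 FPKM in the control libraries and 13.3, 14.0 and 12.5 FPKM in the PRMT1 KD libraries, so the labels and the targeted gene went together. On the log2(FPKM + 1) scale PRMT1 fell by 2.13 (limma adjusted p = 2.8e-05). The plasma cell genes TNFRSF17, XBP1, IRF4 and SDC1 had control means of 261.9, 286.6, 115.7 and 51.4 FPKM. PRDM1 and CD38 were lower, at 18.1 and 1.92 FPKM. CD27 had means of 1.02 FPKM in control and 0.823 FPKM in PRMT1 KD and was not tested. Of 7 plasma cell markers tested, only SLAMF7 passed an adjusted p under 0.05 (38.0 to 23.8 FPKM, limma adjusted p = 0.00515), where 2.05% of all genes tested did. The groups did not overlap for 4 of the 7, against 25.9% of all genes tested. Of these, SLAMF7, PRDM1 and XBP1 were lower and CD38 was higher in PRMT1 KD. None of the 5 myeloid and none of the 5 stromal and epithelial markers reached a mean of 1 FPKM. Of 5 T cell markers, CD3E (33.4 FPKM in control) and CD3G (3.08 FPKM) were above that level, whereas CD3D, CD2 and TRAC were below it. The separate libraries are called replicates in the labels, and the study describes its biological replicates as dependent. In what way they depended is not given, so the p-values may not measure the spread between independent experiments.

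No gene of the fusion and fission machinery changed with an adjusted p under 0.05. With limma on log2(FPKM + 1) and Benjamini-Hochberg adjustment over all genes tested, 0 of the 10 passed, where 2.05% of all genes tested did. The count was also 0 with limma's voom on the reads. At an unadjusted p under 0.05, 4 of the 10 passed, with YME1L1, FIS1 and MIEF2 lower and MFN1 higher in PRMT1 KD, against 19.5% of all genes tested. Voom gave the same 4. Of these, only YME1L1 was left without control library 1, without control library 2 or without PRMT1 KD library 3, and 2 genes were left without PRMT1 KD library 1 or without PRMT1 KD library 2. Without control library 3, all 4 passed and MIEF1 was added. In 2 of the 10, YME1L1 and MFN1, the groups did not overlap, against 25.9% of all genes tested, so this count was close to the background. The log2 fold changes ran from -0.19 to 0.19, with 5 genes below 0 and a median of -0.00090, beside a median of 0.0095 over all genes tested. Over the 10 genes, the lowest limit of a 95% confidence interval was 0.774-fold (MIEF2) and the highest 1.34-fold (OMA1), as folds of FPKM + 1. Without the pseudocount of 1, the log2 fold change was -0.23 for MIEF2 in place of -0.19, and 0.18 for OMA1 in place of 0.13. In bulk RNA, fewer cells of a kind and less RNA per cell cannot be told apart.

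**Figure D1:**
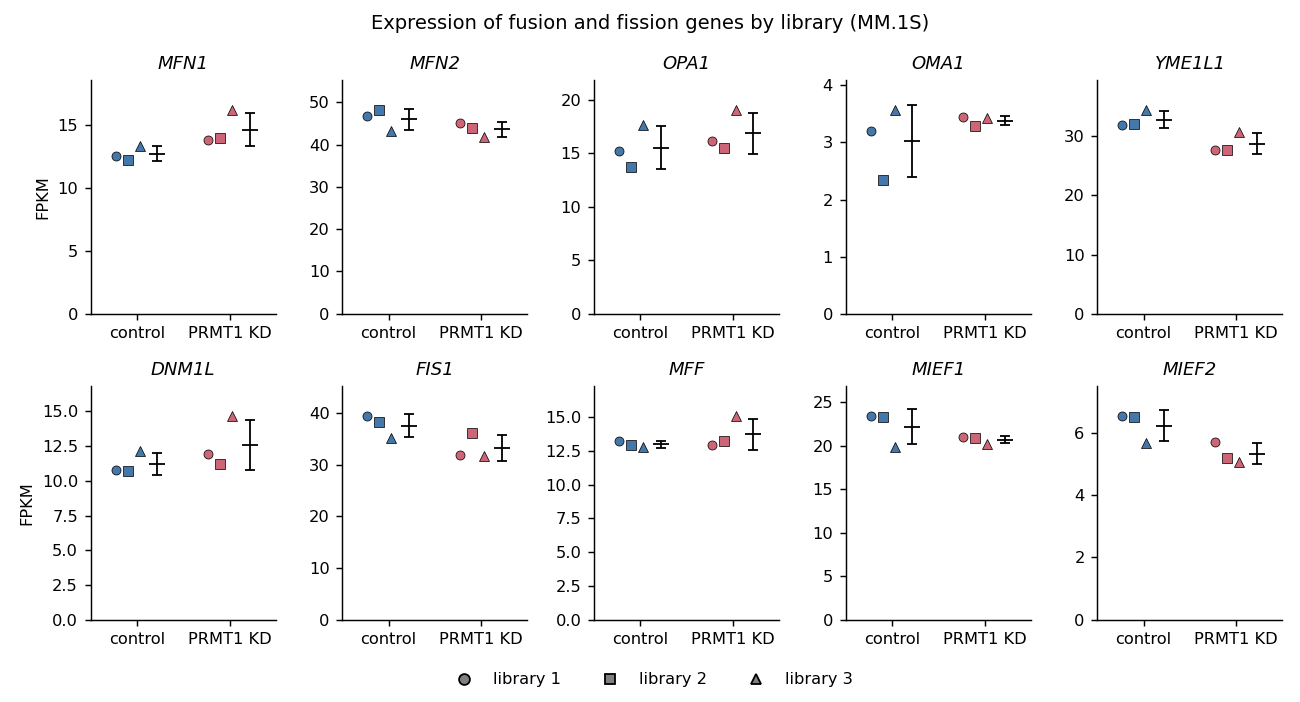
Expression in FPKM (vertical axis, from 0) of each of the 10 genes in the 3 control (blue) and 3 PRMT1 KD (red) libraries. The symbol gives the library number, and the bar gives the group mean and SD. The 3 PRMT1 KD libraries lay below all control libraries for YME1L1 and above them for MFN1, and the groups overlapped for the other 8 genes.

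The mitofusins differed in level and in direction. MFN2 had the highest level of the 10 genes, above 93.5% of all genes tested, with 46.7, 48.2 and 43.2 FPKM in the control libraries and 45.2, 43.9 and 41.8 FPKM in the PRMT1 KD libraries. Its groups overlapped, and its log2 fold change was -0.075 (95% confidence interval -0.21 to 0.058, limma adjusted p = 0.508). It was -0.042 without control library 2, -0.044 without PRMT1 KD library 3 and -0.12 without control library 3. MFN1, the other mitofusin, was 12.55, 12.2 and 13.35 FPKM in control and 13.8, 13.9 and 16.2 FPKM in PRMT1 KD. Every PRMT1 KD library was higher than every control library, and the PRMT1 KD mean was 115.1% of control, which did not pass the adjusted threshold. The log2 fold change of MFN1 was 0.19 (standard error 0.0727, 95% confidence interval 0.015 to 0.36, limma adjusted p = 0.221). It was 0.12 without PRMT1 KD library 3 and 0.22 without PRMT1 KD library 1. For MFN1 the exact permutation p (two-sided) was 0.1, the smallest value that 3 libraries against 3 allow. Read within each library, MFN1 was 0.269, 0.253 and 0.309 of MFN2 in control and 0.305, 0.317 and 0.387 in PRMT1 KD, and the groups overlapped because control library 3 lay above PRMT1 KD library 1 (exact two-sided permutation p = 0.2 for the log2 ratio, 0.25 adjusted over 5 ratios). The log2 change of this ratio was 0.28, with 0.17 without PRMT1 KD library 3 and 0.36 without control library 3.

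OPA1 was 15.3, 13.7 and 17.7 FPKM in the control libraries and 16.1, 15.5 and 19.05 FPKM in the PRMT1 KD libraries. The spread within each group was wide, with a coefficient of variation of 12.95% in control and 11.2% in PRMT1 KD, against a counting error of about 2.07% at its mean of 2332 reads per library. Its log2 fold change of 0.11 (95% confidence interval -0.14 to 0.37, limma adjusted p = 0.608) was smaller than this spread. It was 0.031 without control library 2, 0.029 without PRMT1 KD library 3 and 0.20 without control library 3. An increase of FPKM + 1 of more than 1.29-fold or a decrease below 0.906-fold lay outside the interval.

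Of the OPA1-cutting proteases, YME1L1 lay below the control range in every PRMT1 KD library, and OMA1 overlapped between the groups. YME1L1 was 31.9, 32.1 and 34.4 FPKM in control (32.8 ± 1.41, SD, n = 3) and 27.8, 27.7 and 30.8 FPKM in PRMT1 KD (28.7 ± 1.78, SD, n = 3), a ratio of means of 87.6%. The log2 fold change of YME1L1 was -0.19 (standard error 0.0591, 95% confidence interval -0.32 to -0.046, limma adjusted p = 0.151), the smallest adjusted p of the 10 genes. At a mean of 3596 reads per library, counting error was about 1.67%. YME1L1 lies at chr10:27110112-27155266 (GRCh38, minus strand), and 443 of its exonic bases are shared with MASTL on the opposite strand. The difference of MASTL, a mitotic kinase, was 0.084 on the log2 scale (limma adjusted p = 0.657), and the strand setting of the counting is not given in the sources used here. OMA1 had the lowest level of the 10 genes, 3.20, 2.335 and 3.56 FPKM in control and 3.44, 3.29 and 3.43 FPKM in PRMT1 KD. These values rest on 140 to 219 reads per library, and the 3 PRMT1 KD values lay within the range of the control values. The log2 fold change of OMA1 was 0.13 with the widest confidence interval of the 10, from -0.15 to 0.42 (limma adjusted p = 0.589). Without control library 2 it was 0.0016, and without control library 3 it was 0.23. Within each library OMA1 was 0.1004, 0.0727 and 0.104 of YME1L1 in control and 0.124, 0.119 and 0.111 in PRMT1 KD. The ratio was higher in all 3 PRMT1 KD libraries than in any control library, by 1.29-fold (exact two-sided permutation p = 0.1, 0.167 adjusted over 5 ratios). It depended on control library 2, which had the fewest OMA1 reads, and its log2 value was 0.21 without it and 0.37 with it. Without control library 3 the log2 value of this ratio was 0.46.

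DNM1L had a higher mean in PRMT1 KD and did not pass the test. It was 10.8, 10.7 and 12.1 FPKM in the control libraries and 11.9, 11.2 and 14.6 FPKM in the PRMT1 KD libraries, and the groups overlapped. Its log2 fold change was 0.15 (95% confidence interval -0.091 to 0.39, limma adjusted p = 0.468), so a decrease of FPKM + 1 below 0.939-fold lay outside the interval. Without PRMT1 KD library 3, the highest of the 6, the log2 fold change of DNM1L was 0.043, and without PRMT1 KD library 2 it was 0.22. OPA1 relative to DNM1L, an inner membrane fusion gene over the fission GTPase, was 1.42, 1.28 and 1.46 in control and 1.36, 1.38 and 1.30 in PRMT1 KD, with overlapping groups (exact two-sided permutation p = 0.6, also after adjustment over 5 ratios).

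Of the 4 outer membrane adaptors of DRP1, 3 had lower means and MFF a higher mean in PRMT1 KD, and none passed the adjusted threshold. FIS1 was 39.3, 38.2 and 35.2 FPKM in control and 31.9, 36.1 and 31.7 FPKM in PRMT1 KD. Its groups overlapped through PRMT1 KD library 2, and its log2 fold change was -0.17 (standard error 0.0687, 95% confidence interval -0.33 to -0.010, limma adjusted p = 0.231). MIEF2 was 6.53, 6.50 and 5.67 FPKM in control and 5.71, 5.18 and 5.08 FPKM in PRMT1 KD. PRMT1 KD library 1 and control library 3 met at almost the same level, and the log2 fold change of MIEF2 was -0.19 (standard error 0.0746, 95% confidence interval -0.37 to -0.017, limma adjusted p = 0.219). MIEF1 was 23.35, 23.3 and 19.9 FPKM in control and 20.95, 20.85 and 20.2 FPKM in PRMT1 KD. Control library 3 lay below all PRMT1 KD libraries, and the log2 fold change of MIEF1 was -0.094 (95% confidence interval -0.26 to 0.070, limma adjusted p = 0.501). It was -0.056 without control library 1, -0.058 without control library 2 and -0.17 without control library 3. MFF was 13.2, 12.9 and 12.8 FPKM in control and 12.9, 13.2 and 15.05 FPKM in PRMT1 KD. Only PRMT1 KD library 3 lay above the control range, and without it the log2 fold change of 0.073 for MFF became 0.0092. Without PRMT1 KD library 1 it was 0.11.

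Ratios among the adaptors separated the groups by small amounts. MFF was 0.337, 0.338 and 0.363 of FIS1 in control and 0.405, 0.366 and 0.475 in PRMT1 KD, higher in every PRMT1 KD library by 1.19-fold on average. The log2 change of this ratio was 0.26, with 0.15 without PRMT1 KD library 3 and 0.34 without PRMT1 KD library 2. MIEF1 was 3.58, 3.58 and 3.505 times MIEF2 in control and 3.67, 4.025 and 3.97 times in PRMT1 KD, higher in every PRMT1 KD library by 1.09-fold on average. Both gave an exact two-sided permutation p of 0.1 (0.167 adjusted over 5 ratios), the smallest possible before adjustment. The 4 adaptors summed to 82.4, 80.9 and 73.5 FPKM in control and 71.5, 75.4 and 72.02 FPKM in PRMT1 KD, a sum chosen after the values were seen. Per unit of DNM1L, the sum was 7.09 ± 0.892 (SD, n = 3) in control and 5.89 ± 0.915 (SD, n = 3) in PRMT1 KD, and the groups overlapped.

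The order of the levels was nearly the same in both groups. In control it ran from MFN2 through FIS1, YME1L1, MIEF1, OPA1, MFF, MFN1, DNM1L and MIEF2 to OMA1, and the libraries of MFF and MFN1 were the only neighbours that overlapped. In PRMT1 KD the order differed only in that MFN1 stood above MFF, and the libraries overlapped between OPA1 and MFN1, MFN1 and MFF, and MFF and DNM1L. FPKM is scaled by gene length, so these are levels per length.

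**Figure D2:**
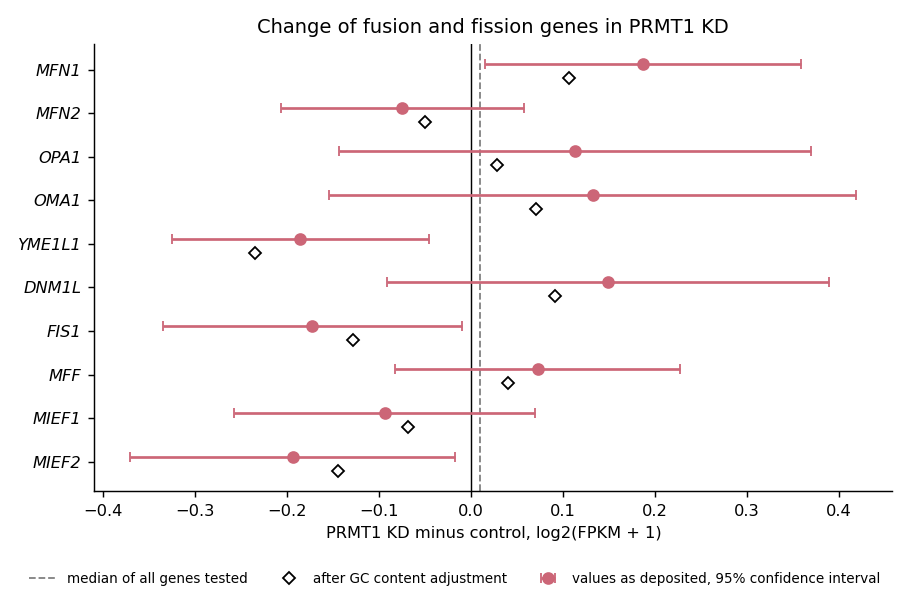
Log2 fold change of each gene (PRMT1 KD minus control on the log2(FPKM + 1) scale, horizontal axis) with its 95% confidence interval (red), and the estimate after an adjustment for GC content (open diamonds). The dashed line is the median of all genes tested, 0.0095. The intervals of MFN1, YME1L1, FIS1 and MIEF2 do not cross 0, and after the adjustment YME1L1 moved away from 0 and the other 9 moved towards it.

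Library number 3 lay at the same end of both groups for most of the 10 genes. It was the highest of its group for MFN1, OPA1, YME1L1 and DNM1L in both control and PRMT1 KD, and the lowest of its group for MFN2, FIS1, MIEF1 and MIEF2 in both, 8 of the 10 genes in all. The share of all genes tested with this pattern is not given here. In PRMT1 KD the margin was narrow for FIS1 (31.7 FPKM against 31.9 in library 1) and MIEF2 (5.08 against 5.18 in library 2). The sets of 4 genes differ in the base composition of their transcripts. GC content, taken over the annotated transcripts of each gene in GENCODE release 29, was 38.5 to 42.1% for the first 4 and 53.7 to 61.6% for the second 4, around a median of 48.9% over all genes tested. The same trend ran across the table. In the quartile of genes with the lowest GC content, control library 3 lay above its group mean by a median of 0.080 and PRMT1 KD library 3 by 0.090 on the log2 scale, and the other 4 libraries lay below their group means. In the quartile with the highest GC content, control library 3 and PRMT1 KD library 3 had medians of -0.066 and -0.088.

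The difference between PRMT1 KD and control went with GC content in the same direction. The median log2 fold change was 0.075 in the quartile of genes with the lowest GC content and -0.042 in the quartile with the highest, and Pearson's r across the 13574 genes with a GC value was -0.211, where the genes share libraries and are not independent. MFN1, OPA1, OMA1 and DNM1L were in the lowest quartile, with log2 fold changes of 0.19, 0.11, 0.13 and 0.15. FIS1 and MIEF2 were in the highest quartile, with log2 fold changes of -0.17 and -0.19. YME1L1 was in the lowest quartile too, with a GC content of 42.1%, and its log2 fold change of -0.19 was below those of all but 7.81% of the genes in that quartile. The values of the 10 genes lay on the same side of 0 as the median of their GC quartile, with the exception of YME1L1. Each quartile held genes on both sides of 0. MFN1 lay above 78.8% of the genes of its quartile, and MIEF2 and FIS1 above 17.6% and 20.8% of theirs. MFN2, OPA1, OMA1, DNM1L, MFF and MIEF1 lay above 30.2 to 71.0% of theirs.

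**Figure D3:**
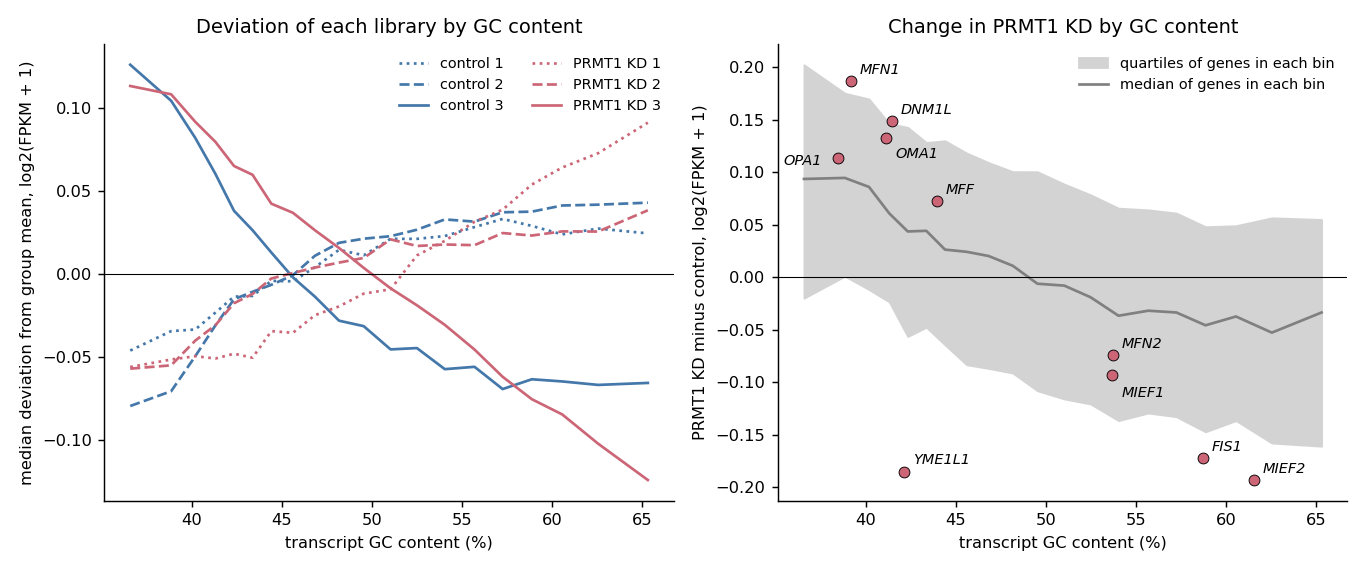
Left, median deviation of each library from its group mean (log2(FPKM + 1) scale) in 20 equal bins of genes by transcript GC content in percent, with library number 3 of both groups (solid lines) falling from low to high GC content. Right, median log2 fold change (gray line) and quartiles (band) in the same bins, with the 10 genes as red points. MFN1, OPA1, OMA1 and DNM1L lay at low GC content above 0, FIS1 and MIEF2 at high GC content below 0, and YME1L1 at 42.1% GC and -0.19, on the other side of 0 from the median of its bin.

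An adjustment for GC content, chosen after the data were seen, removed from each library its smooth deviation along GC content. With it, the log2 fold change of YME1L1 was -0.24 and passed the threshold (limma adjusted p = 0.0195), and YME1L1 was the only one of the 10 genes called, where 726 of all genes tested were called. The call was lost when control library 1 or 2 or PRMT1 KD library 1 or 2 was left out (adjusted p from 0.056 to 0.0788) and when both libraries numbered 3 were left out (adjusted p = 0.0797), and the log2 fold change stayed between -0.25 and -0.22. The adjusted estimate was 0.029 for OPA1, 0.11 for MFN1 and 0.091 for DNM1L, and those of FIS1 (-0.13) and MIEF2 (-0.14) were also closer to 0 than before. The adjustment takes out any part of the PRMT1 KD difference that runs with GC content, so a response of the cells and a property of the libraries cannot be told apart by it. The ratios of MFN1 to MFN2, of MFF to FIS1 and of MIEF1 (53.7%) to MIEF2 (61.6%) compare a gene of lower GC content with one of higher GC content, whereas OMA1 (41.1%) and YME1L1 (42.1%) are alike in it.

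The genes around the core machinery were read from 6 lists written from general knowledge, with 65 genes in all, of which 63 were tested. In these lists 2 genes passed an adjusted p under 0.05, both lower in PRMT1 KD, and 0 were higher, where 2.05% of all genes tested passed (134 lower and 145 higher). The median log2 fold change of the 63 was -0.019, with 34 below 0. At an unadjusted p under 0.05, 8 were lower and 3 were higher, where 19.5% of all genes tested passed (1287 lower and 1368 higher).

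The first of the 2 was MTFR1L, a relative of the mitochondrial fission regulator MTFR1. It fell from 17.7 ± 0.326 to 14.3 ± 0.259 FPKM (SD, n = 3 each), to 80.6% of control, or by 0.29 on the log2 scale (limma adjusted p = 0.0343, standard error 0.0442). The second was MTX1, a metaxin of the outer membrane that works in protein import and binds the cristae-organising complex. It fell from 22.8 ± 0.588 to 18.5 ± 0.917 FPKM (SD, n = 3 each), to 81.2% of control, again by 0.29 on the log2 scale (limma adjusted p = 0.0484, standard error 0.0522). For both genes all PRMT1 KD libraries lay below all control libraries, and both calls were lost when any single library was left out (adjusted p from 0.0703 to 0.146 for MTFR1L and from 0.0884 to 0.173 for MTX1). Both were also lost with no filter on low values (adjusted p = 0.0666 and 0.112) and without the trend (0.0769 and 0.0915), and MTX1 after rescaling to TPM (0.0662). MTX1 has an expressed pseudogene, MTX1P1 (8.76 FPKM), with which the counting could have split reads, and shares 146 exonic bases with THBS3 on the opposite strand. MTFR1L shares 238 exonic bases with AUNIP (4.18 FPKM) and 845 with AL020996.1 (0.391 FPKM) on the opposite strand. It also shares 414 exonic bases with AL020996.2 (0 FPKM) on the same strand.

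Of 19 fission accessory genes tested, MTFR1L was the only one called. The highest log2 fold change was that of CDK1, the mitotic kinase that phosphorylates DRP1, at 0.24 (limma adjusted p = 0.368). For CDK1 it was 0.12 without PRMT1 KD library 3, 0.16 without control library 2 and 0.35 without control library 3. The list median was -0.029. Of 8 fusion accessory genes, 0 were called (limma; 1 at an unadjusted p under 0.05). Their values ran from MIGA2, a mitoguardin, at -0.056 to PLD6, a mitochondrial phospholipase, at 0.18 (limma adjusted p = 0.768 and 0.243), with a median of -0.022. The list labelled inner membrane proteases held 7 mitochondrial proteases other than YME1L1 and OMA1, not all of them in the inner membrane. Of these 7, 0 were called, also at an unadjusted p under 0.05. They ran from SPG7, a subunit of the m-AAA protease, at -0.12 to HTRA2, an intermembrane space protease, at 0.12.

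Of 12 genes for cristae organisation, MTX1 was called. The lowest log2 fold change of that list was that of C19orf70, which encodes the MICOS subunit MIC13, at -0.30 (from 19.7 ± 1.85 to 15.9 ± 1.54 FPKM, SD, n = 3 each, limma adjusted p = 0.14), and the highest that of IMMT, the central MICOS subunit mitofilin, at 0.072. Of 7 transport adaptors, 0 were called by limma and 1 by voom, where limma called 279 and voom 927 of the 13585 genes tested. That gene was TRAK1, which links mitochondria to kinesin, at 0.24 on the log2 scale (limma adjusted p = 0.11, voom adjusted p = 0.0281, limma adjusted p = 0.0411 after the GC content adjustment). FKBP8 was the lowest of this list at -0.17 (limma adjusted p = 0.274). Of 10 genes often used as markers of mitochondrial content, 0 were called by limma or by voom (2 at an unadjusted p under 0.05, CYCS and COX4I1, both lower, against 19.5% of all genes tested), from TOMM40, the import channel, at -0.17 to HSPD1, the matrix chaperonin, at 0.13. Their median was 0.052. The groups did not overlap for 4 of the 10, with CYCS and COX4I1 lower and VDAC1 and CS higher in PRMT1 KD, against 25.9% of all genes tested. After the adjustment for GC content, limma called CYCS, where 726 of all genes tested were called.

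**Figure D4:**
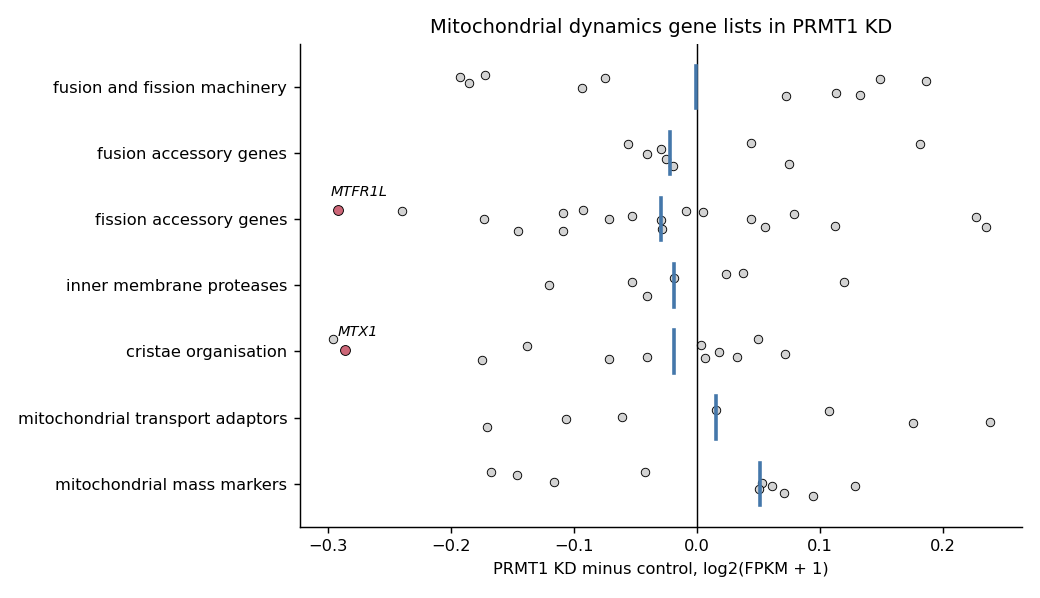
Log2 fold change (PRMT1 KD minus control on the log2(FPKM + 1) scale, horizontal axis) of each tested gene in the fusion and fission machinery and in the 6 surrounding lists. Each point is a gene, red where its limma adjusted p was under 0.05, and the blue bar is the median of the list. MTFR1L and MTX1 are the 2 red points, and the medians lay between -0.029 and 0.052.

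Small interfering RNAs can lower other mRNAs that pair with bases 2 to 8 of their guide strand, so the 3′ UTRs of the 10 genes were searched for such sites. The study lists 3 siRNAs against PRMT1, and which of them was used for these libraries is not given in the sources used here. Their target sequences in PRMT1 are shown because the capitals mark the letters searched for, which pair with guide bases 2 to 8:
PRMT1 target of the siRNA called si-PRMT1-1: gcaactccatgTTTCATAa
PRMT1 target of the siRNA called si-PRMT1-2: agacggtgttcTACATGGa
PRMT1 target of the siRNA called si-PRMT1-3: ccatcgacctgGACTTCAa

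Over annotated coding transcripts of GENCODE release 29, TTTCATA occurred on the mRNA strand in a 3′ UTR of 2288 of the 10052 coding genes tested (22.8%), TACATGG of 1010 (10%) and GACTTCA of 1409 (14.0%). TTTCATA was found in DNM1L, MFF, MIEF2 and OPA1, TACATGG in YME1L1, and GACTTCA in OPA1 and YME1L1. The sites of YME1L1, the gene with the smallest p of the 10, are given with their neighbours on the mRNA strand. The first lies at chr10:27110310-27110316 (GRCh38, minus strand) and is in the 3′ UTR of 1 of 5 coding transcripts, and the second lies at chr10:27110481-27110487 (GRCh38, minus strand) and is in 3 of 5:
YME1L1 site for si-PRMT1-2: gccagcataaTACATGGatgtctcata
YME1L1 site for si-PRMT1-3: tcttgacgttGACTTCAttaaaattat

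Of the genes with such letters, DNM1L, OPA1 and MFF had log2 fold changes above 0 and MIEF2 and YME1L1 below 0. FIS1, MFN1, MFN2, MIEF1 and OMA1 held none of the 3. These matches are descriptions of sequence, and whether any of them was bound was not tested.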

How the data were processed

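RNA from MM.1S cells was sequenced in 3 control and 3 PRMT1 KD libraries. Per the labels, the authors used featureCounts 1.5.0-p3 and the hg38 build, and they deposited FPKM values per gene with gene lengths. The aligner, annotation release and strand setting are not given in the sources used here. FPKM multiplied by length gave whole multiples of a single step per library (tolerance 0.1) for 100% of values above 0, which gave the reads. Gene identifiers matched GENCODE release 29 (58735 of 58735).

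Values were tested as log2(FPKM + 1) in R 4.3.3. Moderated two-sided tests with a mean-variance trend came from limma 3.58.1, with Benjamini-Hochberg adjustment over all genes whose FPKM averaged 1 or more. The pseudocount makes changes of low genes look smaller. The fit was run on simulated reads without a GC trend, in which 200 genes changed by 1 on the log2 scale. It called 82% of them in the right direction, and 10 unchanged genes. The changes of the 10 fusion and fission genes were smaller, so the simulation does not show how often changes of their size are found. Single ratios were compared with exact permutation tests in scipy 1.17.1. Alternatives covered the pseudocount, filter, scaling, trend, replicate block, voom and each library left out. The adjustment for GC content (lowess, span 0.3) and leaving out both libraries numbered 3 were chosen after the data were seen. The genes and lists were chosen with earlier results of these data known. Named were the 10 genes, PRMT1, list genes with an adjusted p under 0.05, and the highest and lowest of each list. TNFRSF17, XBP1, IRF4, SDC1, PRDM1, CD38, CD27, CD3E, CD3G, CYCS, COX4I1, VDAC1, CS, MASTL, SLAMF7 and genes that overlap a called gene were named after their values were seen. Protein sequence features were not analysed here.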

Additional observations from a re-analysis of the deposited data

How the results depend on the processing

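PRMT1 passed the threshold in each of 17 alternatives, at -2.21 to -2.09 on the log2 scale. In the 17 alternatives, 0 of the 10 fusion and fission genes had an adjusted p under 0.05, except with the GC content adjustment, which called 1 (YME1L1). Each of the 10 kept its direction in all alternatives run for it, except MFF, which was -0.0014 without both libraries numbered 3. OMA1 could not be given at a mean FPKM of at least 5. An unadjusted p under 0.05 was reached by YME1L1 in 15 of 17 alternatives, by MIEF2 in 12, and by MFN1 and FIS1 in 11 each. The deviations of control and PRMT1 KD libraries of the same number had correlations of 0.02, 0.0631 and 0.101. For libraries of different numbers the correlations ran from -0.0751 to 0.0186. Whether the numbers stand for paired libraries is not given in the labels, so the main fit without a block and the fit with it are both given. With the replicate block, 204 genes were called in place of 279, and none of the 10 was called (YME1L1 adjusted p = 0.0643; 6 had an unadjusted p under 0.05, with OPA1 and DNM1L added). The GC content adjustment together with the replicate block gave YME1L1 an adjusted p of 0.0702.

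The number of all genes called changed with the setting, for causes not tested. It was 35 with no filter, 473 at a mean FPKM of at least 5, 43 without trend, 927 with voom, 726 with the GC content adjustment and 25 without both libraries numbered 3. Leaving out control library 1, 2 or 3 gave 13, 20 or 94, and leaving out PRMT1 KD library 1, 2 or 3 gave 34, 16 or 26. Median scaling turned the split from 145 higher and 134 lower to 82 higher and 139 lower, quantile normalization to 146 higher and 179 lower, and rescaling to TPM to 222 higher and 133 lower. The count of list genes called was 0 with no filter, without trend, with any single library left out or without both libraries numbered 3, 1 after rescaling to TPM and 4 with the GC content adjustment. With the replicate block, MTX1 was lost (adjusted p = 0.0581) and C19orf70 was called (adjusted p = 0.0489). MIGA2 turned from -0.056 to 0.0084 without PRMT1 KD library 3, in a range from -0.13 over the libraries left out. OMA1 had 140 to 219 reads per library, with a counting error of about 7.26% beside a coefficient of variation of 20.8% in control.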
